A study of Rattus norvegicus with 9 samples.

Results

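Amino acid transporters of the solute carrier families Slc1, Slc3, Slc6, Slc7, Slc36, Slc38 and Slc43 were followed in RNA from the kidneys of 9 rats. Members were the genes whose symbol starts with 1 of these family names and a number, leaving out Slc3a2, Slc6a6, Slc6a12 and Slc7a11, with a level of at least 0.5 CPM (a read count scaled to a common library size) in at least 3 libraries. Of 62 matching symbols, 4 were left out by that rule and 21 lay below the filter, so that 37 members remained among 18733 features that passed the same filter and 36267 features in the table. Rats of the icariin group (ICA, n = 3) were given icariin, a flavonoid glycoside of Epimedium plants, into the stomach at 100 mg/kg once a day for 3 days and then went through the contrast protocol. Rats with contrast-induced acute kidney injury (CIAKI, n = 3) went through the contrast protocol alone. It consisted of 200 mg/kg of the diuretic furosemide by gavage, dehydration for 6 h, and the iodinated contrast medium iopromide (370 mg I/mL) at 15 mL/kg into a tail vein. Control rats (CON, n = 3) had no treatment, so that the effects of furosemide, dehydration and contrast medium cannot be told apart. All rats weighed 180 to 200 g; age, sex and strain are not stated in the labels.

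The kidney filters free amino acids into the tubule lumen and takes nearly all of them back in the proximal tubule. Sodium-coupled and exchange carriers of the brush border bring them into the cell, and exchangers and facilitators of the basolateral membrane pass them on to the blood. Several carriers of the Slc7 family work only as a pair with a heavy chain, Slc3a1 at the brush border or Slc3a2 at the basolateral membrane. Other members supply single cells with amino acids for protein synthesis, and some of these are known in cultured cells as targets of ATF4, the transcription factor of the integrated stress response. Not every member is an amino acid carrier: Slc6a4 carries serotonin, Slc6a8 carries creatine, Slc43a3 is known in human and mouse cells as a carrier of purine bases, and Slc7a6os is a gene beside Slc7a6 that encodes no carrier.

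Levels in CPM give a gene's share of all reads of its library and are not corrected for gene length. Depth was 64380578 to 90398405 reads per library, so that 1 CPM stood for 64.4 to 90.4 reads. Proximal tubule markers were abundant in all libraries, with a summed level of 33302 to 35831 CPM in icariin, 14004 to 21070 CPM in CIAKI and 29345 to 32701 CPM in control kidneys over 15 genes. Icariin library 2 had 437 CPM of Mt-co1, a gene of the mitochondrial genome, whereas the 8 other libraries had 22773 to 38157 CPM. Fold changes are differences of log2(CPM + 1), so those of genes with low values are understated. They were tested with limma over all 18733 features, and a change was called at a Benjamini-Hochberg adjusted p below 0.05. Values in brackets below are log2 fold changes unless another quantity is named.

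In CIAKI kidneys, 11 members were lower than in control kidneys and 6 were higher, so that 17 of 37 (45.9%) were called, beside 38.6% of all features tested. Among all features, 18.9% were called higher and 19.7% lower. At least 2-fold changes were called for 8 members, 5 higher and 3 lower, beside 8.92% of all features, and CIAKI and control libraries did not overlap for 20 of 37, beside 51.5% of all features. The members that fell were mostly carriers of the proximal brush border and basolateral membrane, and those that rose were mostly carriers that supply cells with glycine, glutamine, arginine and branched-chain or aromatic amino acids. With icariin, 18 members (48.6%) differed from CIAKI, 13 of them higher and 5 lower, beside 36.5% of all features (18.3% higher and 18.2% lower). Of these, 7 changed at least 2-fold (7.6% of all features), and groups did not overlap for 20 of 37 members (48.9% of all features). Slc6a4, counted in both comparisons with CIAKI, passed the filter only through icariin and control libraries.

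Between icariin and control kidneys 1 member was called (2.7%), beside 0.561% of all features (0.358% higher and 0.203% lower; 0.251% called with at least 2-fold change). At an unadjusted p below 0.05 the members numbered 4, beside 10.1% of all features. Without icariin library 2, 13 members were called between icariin and CIAKI, 8 of them higher and 5 lower, and the features called in all numbered 5242, against 6833 with that library. The median log2 fold change of the members was -0.13 between CIAKI and control (-0.02 over all features) and 0.05 between icariin and CIAKI (0.03 over all features). Together the members took 0.873% to 1.02% of reads in icariin, 0.528% to 0.589% in CIAKI and 0.773% to 0.936% in control libraries, and these shares did not overlap between CIAKI and either other group. Without Slc3a1 and Slc7a13, member sums were 4010 to 4379 CPM in icariin, 3168 to 3544 in CIAKI and 4083 to 4250 in control libraries. Comparisons with CIAKI share the same 3 CIAKI libraries, so that opposite signs in these comparisons are not independent of each other.

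**Figure D1:**
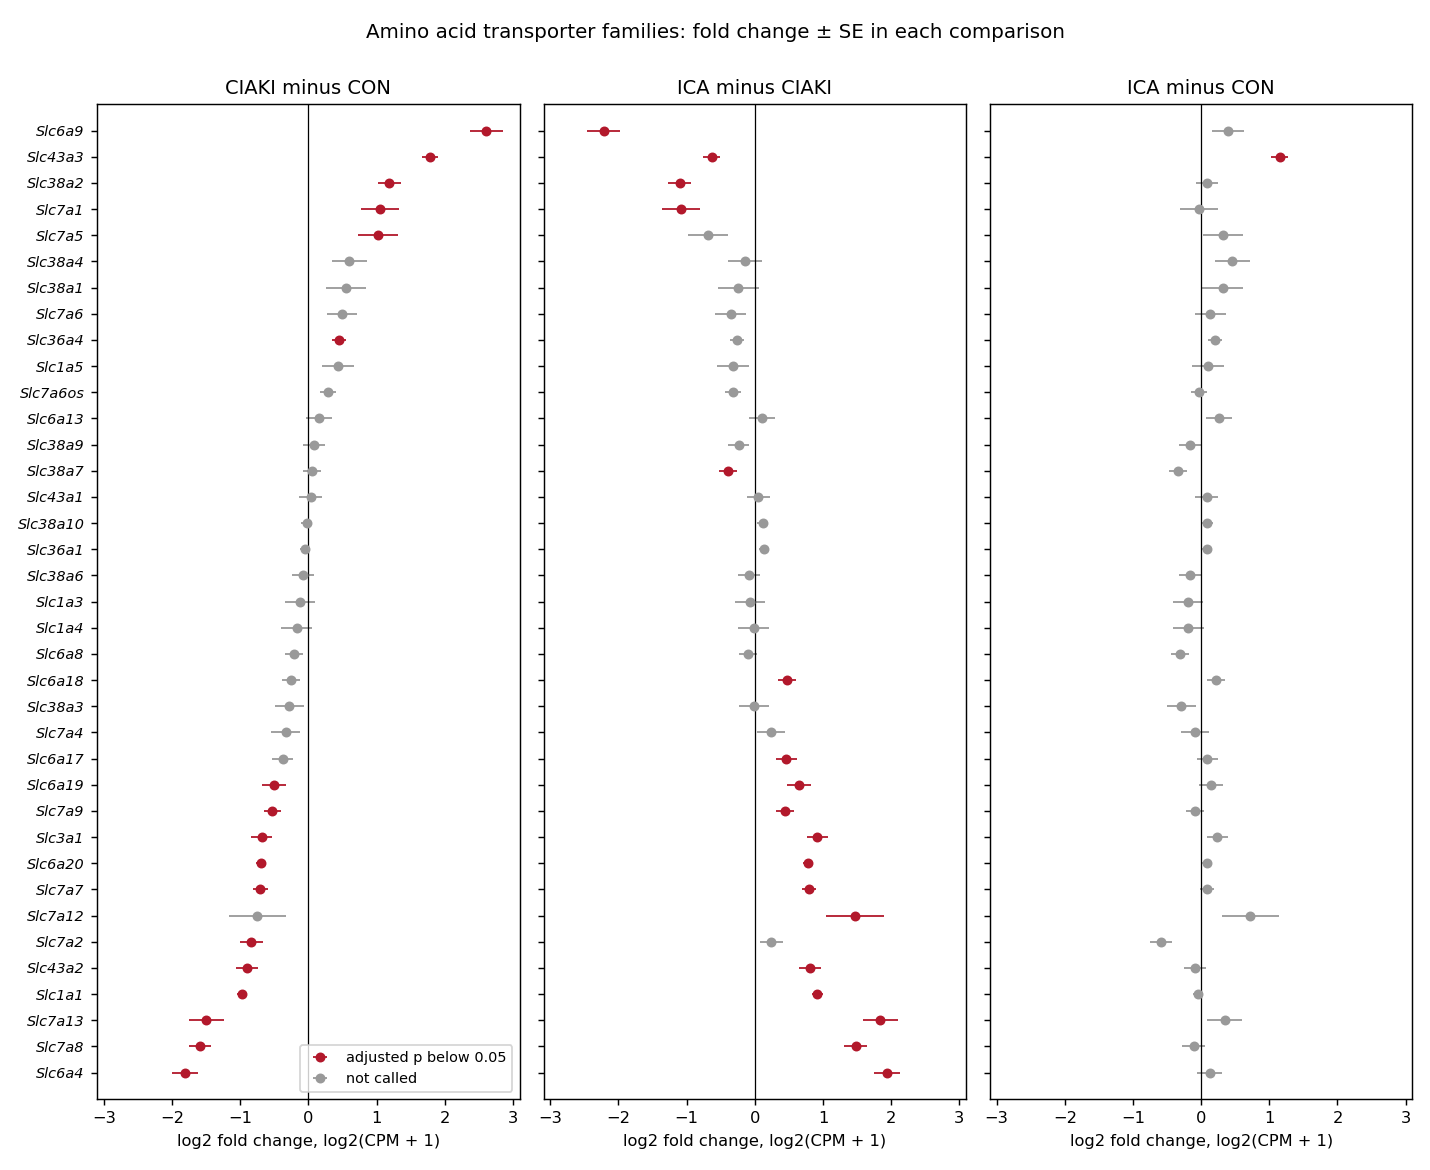
Log2 fold change (x axis, log2(CPM + 1) scale) of each of the 37 members (y axis, ordered by the CIAKI minus CON value) in 3 comparisons; points are limma estimates, bars are 1 SE, and red points were called at an adjusted p below 0.05 (n = 3 rats per group). Slc6a9 stands at the top at 2.61 and Slc6a4, which passed the filter only through icariin and control libraries, at the bottom of the left panel, and only Slc43a3 is red in the right panel.

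Luminal carriers of the proximal tubule formed the most abundant group in reads. Of 8 tested, 6 fell in CIAKI kidneys, 2 did not pass and none rose, with a median log2 fold change of -0.61. With icariin 7 of the 8 were higher than in CIAKI, with a median of 0.72, and none was called against control. Over all features, 19.7% were called lower and 18.9% higher in CIAKI, and 18.3% higher with icariin than in CIAKI. In whole-kidney RNA, fewer cells of a type and less RNA per cell cannot be told apart: of 15 proximal tubule markers, 10 also fell in CIAKI (median -0.96) and 12 were higher with icariin than in CIAKI (median 0.98), and their part in the carriers' values was not tested. Falls were also called among markers of podocytes (4 of 4), thick ascending limb (2 of 5) and distal tubule (2 of 3). Tested markers of lymphocytes (3 of 3) and intercalated cells (1 of 4) fell too. Both directions were called among principal cell markers (2 lower, 2 higher), endothelial markers (1 lower, 1 higher) and macrophage markers (2 lower, 1 higher).

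Slc3a1 encodes the heavy chain rBAT, which carries its partners to the brush border and whose loss in humans causes cystinuria. It stood at 2937, 3307 and 2968 CPM in icariin, 1709.9, 1425 and 1747 CPM in CIAKI and 2413, 3162 and 2306 CPM in control libraries. Every CIAKI library lay below every control and icariin library (log2 fold change -0.68, SE 0.15, adjusted p = 0.0073 for CIAKI against control; 0.92, SE 0.15, adjusted p = 0.0019 for icariin against CIAKI).

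Slc7a9, the light chain b0,+AT that takes up cystine and basic amino acids as a pair with Slc3a1, stood at 172, 251 and 207 CPM in icariin, 153, 152 and 152 CPM in CIAKI and 221, 199 and 244 CPM in control libraries. The 3 CIAKI libraries lay within 1 CPM of each other and below all others. The fall against control was -0.53 (adjusted p = 0.010), and the rise with icariin was 0.44 (adjusted p = 0.024). That rise was not called when any 1 of the CIAKI libraries, icariin 2 or icariin 3 was left out (adjusted p = 0.0524 to 0.0678). Slc7a13, the second light chain known to pair with Slc3a1 in the late proximal tubule, stood at 1788, 2556 and 2044 CPM in icariin, 398, 682 and 744 CPM in CIAKI and 1658, 2114 and 1299.9 CPM in control libraries. It fell by more on the log2 scale than Slc7a9 or Slc3a1 (-1.50, SE 0.26, adjusted p = 0.0021) and was higher with icariin than in CIAKI (1.84, SE 0.26, adjusted p = 0.00089); the difference in size between these genes was not tested.

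Slc1a1 encodes EAAT3, which takes up glutamate and aspartate at the brush border. It stood at 402, 459 and 443 CPM in icariin, 236, 237 and 215 CPM in CIAKI and 462, 441 and 448 CPM in control libraries. The highest CIAKI library lay far below the lowest of the 6 others (CIAKI against control -0.97, SE 0.07, adjusted p = 4.8e-05; icariin against CIAKI 0.92, SE 0.07, adjusted p = 7.4e-05). Slc6a20, a carrier of proline and other imino acids, had 70.3, 66.9 and 73.5 CPM in icariin, 37.98, 40.9 and 42.4 CPM in CIAKI and 66.1, 66.1 and 66.4 CPM in control libraries. It lay lower in all CIAKI libraries (-0.70, adjusted p = 0.00012) and higher with icariin (0.78, adjusted p = 9.8e-05). RefSeq lists 2 genes, Slc6a20a and Slc6a20b, where the table has 1 symbol, so how reads of these copies were divided is uncertain.

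Slc6a19 encodes B0AT1, the main carrier of neutral amino acids, whose loss causes Hartnup disorder. It stood at 327, 355 and 349 CPM in icariin, 158, 259.6 and 253 CPM in CIAKI and 326, 270.0 and 339 CPM in control libraries. CIAKI library 1 was the lowest, and the groups did not overlap (-0.51, adjusted p = 0.048 against control; 0.65, adjusted p = 0.018 for icariin against CIAKI). The fall was close to the threshold and was not called in 10 of 21 alternatives; without CIAKI library 1 it was -0.27 (adjusted p = 0.0723). It was also not called without any 1 of control 1, control 3 and the icariin libraries (adjusted p = 0.0625 to 0.135), and the rise with icariin was not called without icariin 2 (0.055). Slc6a18, the glycine-preferring carrier B0AT3 of the late proximal tubule, had 441, 585 and 498 CPM in icariin, 348, 361 and 384 CPM in CIAKI and 429, 511 and 373 CPM in control libraries. Control and CIAKI libraries overlapped (-0.25, adjusted p = 0.16, 95% interval -0.55 to 0.05), while icariin libraries lay above all CIAKI libraries (0.47, adjusted p = 0.022). The rise with icariin was not called without CIAKI 1, CIAKI 2 or icariin 2 (adjusted p = 0.0538 to 0.0759). Slc36a1, a proton-coupled carrier of small amino acids, had 40.7 ± 1.30 CPM in icariin, 36.9 ± 1.94 CPM in CIAKI and 38.4 ± 2.39 CPM in control kidneys (SD, n = 3 each). It was not called in any comparison, although all icariin libraries lay above all CIAKI libraries (0.14, adjusted p = 0.18), and upper-quartile scaling called that rise (0.0469). Its difference between CIAKI and control lay within -0.22 to 0.12 on the log2 scale (95% interval).

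**Figure D2:**
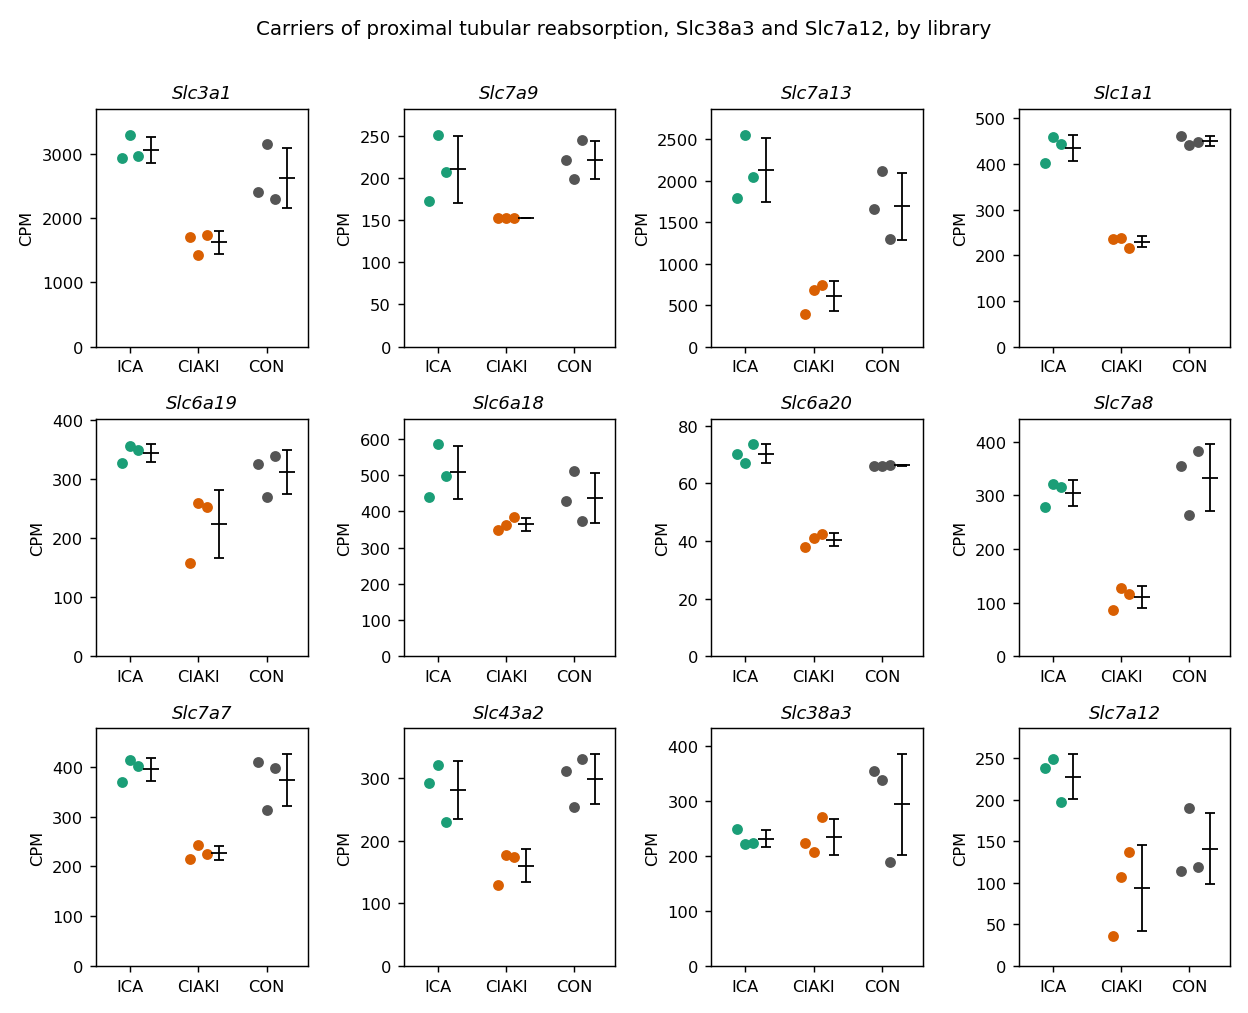
CPM (y axis, starting at 0) of 12 members in each library (points) of the ICA, CIAKI and CON groups (x axis), with the mean and SD beside them (n = 3 rats per group). CIAKI points of Slc3a1, Slc7a9, Slc7a13, Slc1a1, Slc6a19, Slc6a20, Slc7a8, Slc7a7 and Slc43a2 lie below all other points of the gene, while those of Slc38a3 overlap with control points.

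Of 6 tested exchangers and facilitators of the basolateral side, 3 fell and 1 rose in CIAKI, and 3 were higher with icariin than in CIAKI. The basolateral carrier Slc38a3, grouped with Slc38 below, is not among these 6 and was not called in any comparison. The shares over all features were 19.7% lower and 18.9% higher in CIAKI, and 18.3% higher with icariin. Slc7a8 encodes LAT2, an exchanger of neutral amino acids that pairs with Slc3a2. It had 278, 322 and 316 CPM in icariin, 86.6, 127 and 116 CPM in CIAKI and 354, 263 and 382 CPM in control libraries, and no CIAKI library reached the lowest of the other 6 (-1.59, SE 0.17, adjusted p = 0.00018 against control; 1.48, SE 0.17, adjusted p = 0.00032 for icariin against CIAKI). Slc7a7 encodes y+LAT1, which exports basic amino acids and whose loss causes lysinuric protein intolerance in humans. It had 369, 413 and 402 CPM in icariin, 215, 242 and 225 CPM in CIAKI and 410.2, 314 and 397 CPM in control libraries and fell in CIAKI (-0.71, adjusted p = 0.0011), with a higher level under icariin (0.79, adjusted p = 0.00072).

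Slc43a2 encodes LAT4, a facilitator that lets branched-chain and aromatic amino acids out of the cell. Its values were 291, 320.4 and 229.9 CPM in icariin, 129, 176 and 174 CPM in CIAKI and 310.3, 254 and 331 CPM in control libraries, lower in CIAKI (-0.90, adjusted p = 0.0025) and higher with icariin (0.81, adjusted p = 0.0046). Its relative Slc43a1 (LAT3) had 2.92 ± 0.609 CPM in icariin, 2.77 ± 0.517 CPM in CIAKI and 2.68 ± 0.267 CPM in control kidneys and overlapped in all groups (0.03, adjusted p = 0.90 for CIAKI against control). Slc7a6 (y+LAT2) had 11.3, 11.3 and 6.54 CPM in CIAKI and 6.41, 8.14 and 5.07 CPM in control libraries, with an adjusted p of 0.11. Slc7a6os, the neighbouring gene on the other strand, had an adjusted p of 0.081 with all CIAKI libraries above all control libraries, beside 51.5% of all features whose CIAKI and control groups did not overlap. Whether reads were counted by strand is not stated in the labels or headers. Slc7a6 was called higher in CIAKI when CIAKI library 3 was left out (adjusted p = 0.0179), and then also lower with icariin than in CIAKI (0.0416). Slc7a6os was called with TMM and quantile scaling and with edgeR and DESeq2 (adjusted p down to 0.0107).

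Slc7a5 encodes LAT1, the exchanger that brings leucine and other large neutral amino acids into growing cells, also as a pair with Slc3a2. It stood at 16.3, 14.9 and 15.8 CPM in icariin, 30.6, 39.4 and 14.2 CPM in CIAKI and 11.3, 12.6 and 13.0 CPM in control libraries. CIAKI libraries 1 and 2 lay far above control and library 3 close to it (1.02, SE 0.29, adjusted p = 0.022). The rise was not called without control 1, control 2, CIAKI 1 or CIAKI 2 (adjusted p = 0.0534 to 0.0739). Icariin libraries lay below CIAKI libraries 1 and 2 and above CIAKI library 3 (-0.69, adjusted p = 0.094). Slc7a5 was called lower with icariin without CIAKI library 3 (-1.10, adjusted p = 0.00061) and with DESeq2 (-0.86, adjusted p = 0.0149). The heavy chain Slc3a2 itself, left out of the members by the rule, had 416, 417 and 423 CPM in icariin, 558, 481 and 425 CPM in CIAKI and 461, 368 and 456 CPM in control libraries and passed no test (0.19, adjusted p = 0.24 against control).

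Of 6 tested members known from cultured cells as ATF4 targets, 4 rose in CIAKI and 2 did not pass, and 3 were lower with icariin. The median log2 fold changes were 1.04 for CIAKI against control and -0.89 for icariin against CIAKI. Among all features, 18.9% were called higher in CIAKI and 18.2% lower with icariin than in CIAKI. This list was drawn up with earlier results of these data known. The group holds Slc1a4, Slc1a5, Slc6a9, Slc7a1, Slc7a5 and Slc38a2, with Slc7a3 below the filter. Slc6a9 encodes the glycine carrier GlyT1. It had 5.95, 4.13 and 3.61 CPM in icariin, 32.4, 17.4 and 26.0 CPM in CIAKI and 2.74, 3.06 and 3.79 CPM in control libraries, the largest rise of all 37 members (2.61, SE 0.24, adjusted p = 9.9e-05). With icariin it was lower than in CIAKI (-2.22, SE 0.24, adjusted p = 0.00026), and its icariin and control libraries overlapped (0.39, adjusted p = 0.67).

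Slc38a2 encodes SNAT2, a sodium-coupled carrier of glutamine, alanine and other small neutral amino acids that cells induce when amino acids run short. It stood at 281, 221 and 205 CPM in icariin, 447, 616 and 461 CPM in CIAKI and 201, 263 and 202 CPM in control libraries, with every CIAKI library above every other (1.19, SE 0.17, adjusted p = 0.00073 against control; -1.10, SE 0.17, adjusted p = 0.0012 for icariin against CIAKI). Slc7a1 encodes CAT-1, the carrier of arginine and lysine of most cells. It stood at 14.6, 12.2 and 10.7 CPM in icariin, 29.4, 42.6 and 16.3 CPM in CIAKI and 13.1, 12.5 and 12.4 CPM in control libraries, and CIAKI library 3 was again the lowest of its group (1.06, SE 0.28, adjusted p = 0.015 for CIAKI against control; -1.08, adjusted p = 0.015 for icariin against CIAKI). Slc1a5 (ASCT2), a glutamine exchanger, had 20.8, 36.3 and 16.6 CPM in CIAKI and 17.2, 19.2 and 14.9 CPM in control libraries, and only CIAKI library 2 lay far above the others (adjusted p = 0.18, and 0.0409 without CIAKI library 3). Slc1a4 (ASCT1), which exchanges alanine, serine and cysteine, had 17.0 ± 2.91 CPM in icariin, 17.3 ± 4.20 CPM in CIAKI and 19.7 ± 4.88 CPM in control kidneys (95% interval of CIAKI minus control -0.69 to 0.34).

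Genes of the integrated stress response were set beside these carriers. Of 13 tested, 6 rose and 1 fell in CIAKI (median 0.47), and 8 were lower and 1 higher with icariin than in CIAKI (median -0.72), beside 18.9% higher and 19.7% lower of all features in CIAKI and 18.2% lower and 18.3% higher with icariin. Atf4 itself stood at 90.9, 88.1 and 86.5 CPM in icariin, 232, 304 and 186 CPM in CIAKI and 88.6, 90.2 and 99.1 CPM in control libraries (1.34, adjusted p = 0.00025 against control; -1.40, adjusted p = 0.00024 for icariin against CIAKI). CIAKI library 3 was the lowest of its group for Atf4, as for Slc7a1 and Slc7a5, and not for Slc6a9 or Slc38a2. The pseudokinase gene Trib3 rose by 1.48 and Asns, which makes asparagine, by 1.46. Chac1, which degrades glutathione, had 0.260, 0.311 and 0.155 CPM in icariin and 1.85, 6.76 and 1.20 CPM in CIAKI libraries. Control libraries had 0.192, 0.0574 and 0.317 CPM. Chac1 passed the filter only through CIAKI libraries, so its difference from control (1.62) is a description. It is counted among the 6 that rose and the 8 that were lower with icariin. The gene that fell was Phgdh, the first enzyme of serine synthesis (-0.76, adjusted p = 0.0017). Slc7a11, the cystine-glutamate exchanger that is left out of the members, had 0.230, 0.297 and 0.265 CPM in icariin and 21.2, 20.4 and 5.75 CPM in CIAKI libraries. Control libraries had 0.260, 0.474 and 0.370 CPM. Slc7a11 also passed the filter only through CIAKI libraries, so its difference from control (3.43) is given as a description. The heavy chain Slc3a2, also left out, was not called (0.19, adjusted p = 0.24 for CIAKI against control). These lists were drawn up with earlier results of these data known.

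**Figure D3:**
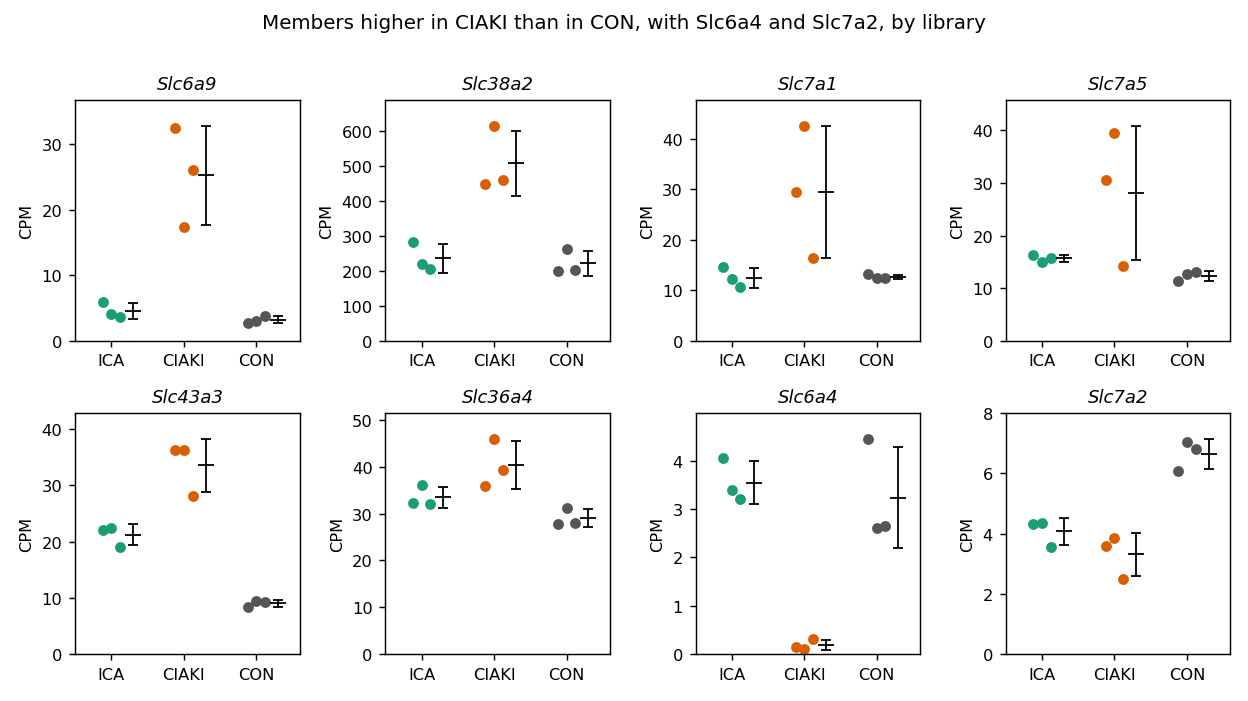
CPM (y axis, starting at 0) of the 6 members that were higher in CIAKI, with Slc6a4 and Slc7a2, in each library (points) of the ICA, CIAKI and CON groups (x axis), with mean and SD beside them (n = 3 rats per group). Slc43a3 lies at 19.1 to 22.5 CPM in icariin libraries, between the CIAKI and control libraries, and Slc6a4 lies below 0.5 CPM in all CIAKI libraries.

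Upstream sequence was looked up for all members, whether called or not. RefSeq's table of promoters (build GRCr8) held a window for 26 of 37 members, matched by symbol, and the 250 bases before each start were searched on both strands for 3 motifs. Among these were the C/EBP-ATF response element through which ATF4 acts (TGATGNAA, where N is any base) and the motif CAAAGTCCA of HNF4A, a factor of the proximal tubule. The C/EBP-ATF letters were found in 3 of 28 windows of members (10.7%; Slc7a1, Slc38a1 and Slc1a4), and in 3.4% of all 33469 windows. Among members higher in CIAKI, 1 of 5 windows held the C/EBP-ATF letters, and among members lower in CIAKI 0 of 6. Slc38a1 and Slc1a4 were not called in any comparison. The HNF4A letters were found in 1 of 28 (Slc3a1), and in 0.338% of all windows. A match is a stretch of letters and not a shown binding site. The windows of 3 members are printed: Slc3a1, which had the most reads of the members that fell, with the HNF4A letters in capitals (read as their reverse complement) at -89 to -81 (chr6:15394750-15394999, minus strand of the genome); Slc7a1, which rose, with the C/EBP-ATF letters in capitals at -30 to -23 (chr12:11664238-11664487, plus strand); and Slc6a9, which rose most and whose window held neither of the motifs named here (chr5:136659826-136660075, plus strand). Positions count back from the base before the RefSeq start.
Slc3a1: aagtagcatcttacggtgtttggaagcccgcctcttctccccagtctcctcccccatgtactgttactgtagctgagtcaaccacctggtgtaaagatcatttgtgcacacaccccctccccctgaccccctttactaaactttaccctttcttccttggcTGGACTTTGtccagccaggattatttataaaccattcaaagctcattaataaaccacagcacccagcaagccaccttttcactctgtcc
Slc7a1: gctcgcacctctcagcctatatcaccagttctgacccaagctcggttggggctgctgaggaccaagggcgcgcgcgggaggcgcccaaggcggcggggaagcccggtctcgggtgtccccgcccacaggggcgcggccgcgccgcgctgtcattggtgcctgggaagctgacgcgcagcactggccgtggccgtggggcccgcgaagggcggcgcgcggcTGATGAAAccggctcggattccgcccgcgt
Slc6a9: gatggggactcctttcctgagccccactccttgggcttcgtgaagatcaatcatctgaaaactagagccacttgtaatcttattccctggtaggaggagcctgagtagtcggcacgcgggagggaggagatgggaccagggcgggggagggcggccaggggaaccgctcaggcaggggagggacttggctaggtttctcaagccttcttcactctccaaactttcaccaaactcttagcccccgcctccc

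Slc43a3, the purine base carrier, was the member that differed between icariin and control kidneys. It stood at 22.1, 22.5 and 19.1 CPM in icariin, 36.4, 36.3 and 28.2 CPM in CIAKI and 8.32, 9.48 and 9.18 CPM in control libraries, so that the 3 groups did not overlap at all. It rose in CIAKI (1.78, SE 0.12, adjusted p = 3.8e-05), was lower with icariin than in CIAKI (-0.63, SE 0.12, adjusted p = 0.0040) and was still higher with icariin than in control (1.15, SE 0.12, adjusted p = 0.0060). This held in all 21 alternatives (adjusted p up to 0.0463). In the RefSeq annotation it lies beside Slc43a1, with 1 protein-coding gene between them, and Slc43a1 passed no test.

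Of 3 tested members of the basic amino acid branch of Slc7, 1 rose in CIAKI (Slc7a1), 1 fell (Slc7a2) and 1 did not pass (Slc7a4). These calls stood beside 18.9% higher and 19.7% lower of all features. Slc7a2 (CAT-2) had 4.31, 4.36 and 3.56 CPM in icariin, 3.60, 3.85 and 2.50 CPM in CIAKI and 6.07, 7.05 and 6.80 CPM in control libraries. It fell in CIAKI (-0.84, SE 0.16, adjusted p = 0.0038), and its icariin libraries overlapped with those of CIAKI (0.24, adjusted p = 0.27). Icariin libraries also lay below all control libraries, at -0.59, which limma did not call (adjusted p = 0.20) and DESeq2 did (0.0236). Between icariin and control, 7 of 37 members had groups that did not overlap, beside 18.7% of all features. Slc7a4, a relative with no known transport activity, had 2.88 ± 0.549 CPM in icariin, 2.30 ± 0.701 CPM in CIAKI and 3.15 ± 0.740 CPM in control kidneys (-0.34, adjusted p = 0.23 for CIAKI against control).

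Of 8 tested members of Slc38, 1 rose in CIAKI (Slc38a2) and 7 did not pass, and 2 were lower with icariin than in CIAKI. Among all features, 18.9% were called higher in CIAKI and 18.2% lower with icariin. Slc38a3 encodes SNAT3, the basolateral glutamine carrier that feeds ammonia formation. It had 249, 221 and 223 CPM in icariin, 224, 207 and 271 CPM in CIAKI and 355, 338 and 188 CPM in control libraries. Control library 3 lay well below the other controls, and the CIAKI and icariin libraries lay between them (-0.28, adjusted p = 0.34, 95% interval -0.77 to 0.21). Without control library 3, Slc38a3 was called lower in CIAKI (-0.57, adjusted p = 0.00934). Slc38a7, a lysosomal glutamine exporter, had 29.7, 37.5 and 34.0 CPM in icariin, 49.7, 39.5 and 45.0 CPM in CIAKI and 43.2, 37.0 and 49.5 CPM in control libraries. It was lower with icariin than in CIAKI (-0.40, adjusted p = 0.041), a call lost in 9 of 21 alternatives (adjusted p up to 0.131), among them the replicate block and those without control 1, CIAKI 1, CIAKI 3, icariin 1 or icariin 3.

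Slc38a9, the lysosomal arginine sensor of the kinase complex mTORC1, had 17.6 ± 1.48 CPM in icariin, 21.2 ± 4.69 CPM in CIAKI and 19.8 ± 1.91 CPM in control kidneys. CIAKI library 2 was the lowest of its group, and without it Slc38a9 was called lower with icariin than in CIAKI (adjusted p = 0.0223). Slc38a10 had 93.0 ± 9.18 CPM in icariin, 85.7 ± 4.34 CPM in CIAKI and 87.4 ± 4.83 CPM in control kidneys, and its difference between CIAKI and control lay within -0.22 to 0.16 (95% interval). Slc38a1 (SNAT1) and Slc38a4 (SNAT4) lie on both sides of Slc38a2 in the annotation; their CIAKI values against control were 0.55, adjusted p = 0.17, and 0.60, adjusted p = 0.089. Slc38a1 was called without control library 2 (adjusted p = 0.0487), and Slc38a4 with quantile scaling and DESeq2 (down to 0.0309). Slc38a6 had 10.7 ± 2.14 CPM in CIAKI and 11.3 ± 1.35 CPM in control kidneys (-0.07, adjusted p = 0.75).

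The remaining members carry other substrates or are known from other tissues. Slc6a4, the serotonin carrier, had 4.05, 3.38 and 3.20 CPM in icariin, 0.144, 0.104 and 0.311 CPM in CIAKI and 4.45, 2.61 and 2.64 CPM in control libraries. All CIAKI libraries, with 12, 7 and 20 reads, lay far below all others, and icariin and control libraries overlapped. Because only icariin and control libraries reached the filter, these differences are given as a description (-1.81 for CIAKI against control; 1.94 for icariin against CIAKI). On recovered reads DESeq2 gave -4.13 for CIAKI against control and 4.25 for icariin against CIAKI. Slc36a4, a relative of Slc36a1 that carries proline and tryptophan, rose in CIAKI, with 35.8, 46.0 and 39.3 CPM in CIAKI, against 27.9, 31.3 and 28.1 CPM in control libraries (0.45, adjusted p = 0.0080), and icariin libraries at 32.3, 36.1 and 32.0 CPM overlapped with CIAKI (-0.26, adjusted p = 0.082). Slc36a4 was called lower with icariin with the replicate block and without CIAKI library 1 (adjusted p down to 0.0395).

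Slc7a12, known in mouse as a carrier of small neutral amino acids, had 237, 249 and 197 CPM in icariin, 36.2, 107 and 137 CPM in CIAKI and 114, 190.0 and 119 CPM in control libraries. CIAKI library 1 was far below the others of its group, and the CIAKI and control libraries overlapped (-0.75, adjusted p = 0.19), while all icariin libraries lay above all CIAKI libraries (1.47, adjusted p = 0.023). Without CIAKI library 1 that rise was 0.90 (adjusted p = 0.0189), and without icariin 1 or icariin 2 it was not called (adjusted p = 0.0596 and 0.0666). RefSeq lists a near copy named Slc7a12l1, so that its reads are uncertain. Slc6a17, a carrier of neutral amino acids of synaptic vesicles, was higher with icariin, at 54.3, 44.1 and 36.2 CPM, than in CIAKI, at 33.1, 31.2 and 31.5 CPM (0.46, adjusted p = 0.042). The call was lost in 7 of 21 alternatives, among them those without any 1 CIAKI library, control 1, icariin 1 or icariin 2. All CIAKI libraries also lay below the control libraries, at 40.6, 49.7 and 35.7 CPM (-0.37, adjusted p = 0.082). That fall was called with upper-quartile and quantile scaling and with DESeq2 (adjusted p down to 0.0337).

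Slc6a8, the creatine carrier, had 388, 416 and 528 CPM in icariin, 542, 438 and 444 CPM in CIAKI and 553, 496 and 597 CPM in control libraries and passed no test (-0.21, adjusted p = 0.24 for CIAKI against control; -0.31, adjusted p = 0.47 for icariin against control). Slc6a13, a carrier of GABA and taurine, had 76.4 ± 7.51 CPM in icariin, 72.8 ± 22.3 CPM in CIAKI and 63.3 ± 4.17 CPM in control kidneys (0.16, adjusted p = 0.55 for CIAKI against control). Slc1a3 (GLAST), a glutamate carrier of glia, had 3.09 ± 0.403 CPM in icariin, 3.39 ± 1.19 CPM in CIAKI and 3.71 ± 0.741 CPM in control kidneys, with overlapping groups (-0.13, adjusted p = 0.68 for CIAKI against control).

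The filter divided the family by level. Of the 37 members, 35 reached 0.5 CPM in all 9 libraries, Slc38a4 did so in 8, with 0.462 to 2.69 CPM, and Slc6a4 in 6, with 0.104 to 4.45 CPM. Just below the filter lay Slc7a15, with 0.192 to 0.644 CPM, and Slc7a10 (Asc-1), each at 0.5 CPM or more in 2 libraries. Slc7a10 had 0.986, 0.639 and 0.342 CPM in CIAKI and 0.329, 0 and 0 CPM in control libraries. The 19 other genes below the filter included Slc1a2, Slc1a6, Slc1a7, Slc6a2, Slc6a3, Slc6a5, Slc6a7, Slc6a11, Slc6a14, Slc6a15, Slc6a16, Slc7a3, Slc7a14, Slc36a2, Slc36a3, Slc38a5, Slc38a8 and Slc38a11, many of them known from the nervous system, and Slc6a3, the dopamine carrier, had 0 reads in all libraries.

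Levels can be compared between genes only per length, and the authors' deposited table of selected mRNAs gives FPKM (fragments per kilobase of transcript, scaled for depth) for 15 of the 37 members in icariin and CIAKI libraries. The authors' selection held 21.2% of all features that passed the filter. In that table Slc3a1 had 1029 ± 60.0 FPKM in icariin and 533 ± 56.2 FPKM in CIAKI kidneys (SD, n = 3 each). Slc7a13 followed with 818 ± 144 FPKM in icariin and 229 ± 73.1 FPKM in CIAKI kidneys. In icariin kidneys Slc7a7 (175 ± 10.6 FPKM), Slc7a12 (103 ± 11.02 FPKM) and Slc1a1 (91.5 ± 6.26 FPKM) came next; Slc7a12 and Slc1a1 differed by about the size of their SDs. In CIAKI kidneys Slc38a2, at 84.3 ± 16.4 FPKM, stood above Slc1a1 at 47.1 ± 2.10 FPKM, whereas in icariin kidneys it was at 40.0 ± 6.64 FPKM, below Slc1a1. Slc6a9 and Slc7a1 were low in both, with Slc6a9 at 1.13 ± 0.297 FPKM in icariin and 6.08 ± 1.73 FPKM in CIAKI kidneys, and Slc7a1 at 1.52 ± 0.230 FPKM in icariin and 3.51 ± 1.58 FPKM in CIAKI kidneys.

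Of partners and carriers outside the members, 14 were in the table and 13 were tested. In CIAKI 5 of these were called, a share close to the 38.6% of all features. Of the 5, 2 rose (Slc7a11 and Slc6a6) and 3 fell (Cltrn, Slc15a2 and Slc15a3). Slc7a11 passed the filter only through CIAKI libraries, so its rise is a description. Cltrn encodes collectrin, which Slc6a19 and Slc6a18 need to reach the brush border. It had 1205, 1203 and 1374 CPM in icariin, 534, 689 and 1099 CPM in CIAKI and 1418, 1369 and 1616 CPM in control libraries (-0.98, adjusted p = 0.0076 against control; 0.77, adjusted p = 0.025 for icariin against CIAKI), with CIAKI library 1 lowest, as for Slc6a19. Slc15a2, the peptide carrier PEPT2, had 281, 269 and 270.3 CPM in icariin, 58.2, 74.7 and 91.9 CPM in CIAKI and 236, 257 and 185 CPM in control libraries (-1.59, adjusted p = 0.00016 for CIAKI against control; 1.88, adjusted p = 0.00010 for icariin against CIAKI). Slc15a3 fell by 1.21 on the log2 scale, and Slc6a6, the taurine carrier, rose by 0.50. Slc16a10 (TAT1), the basolateral carrier of aromatic amino acids, had 52.9 ± 4.12 CPM in icariin, 51.2 ± 7.35 CPM in CIAKI and 53.9 ± 6.84 CPM in control kidneys and passed no test.

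Enzymes that break down amino acids or form ammonia moved in both directions. Of 30 tested, 16 fell and 6 rose in CIAKI (median -0.45), and 18 were higher and 6 lower with icariin than in CIAKI (median 0.55), while none was called between icariin and control. The shares over all features were 19.7% lower and 18.9% higher in CIAKI, and 18.3% higher and 18.2% lower with icariin. Among those that fell were Gatm, which makes the precursor of creatine (-2.81, adjusted p = 0.00071), the hydroxyproline enzyme gene Prodh2 (-1.58), and Cth, which makes cysteine (-1.23). Among the 6 that rose were the transaminase genes Gpt2 (2.35, adjusted p = 0.00015), Bcat1 (2.26), Got1 (1.23) and Got2 (0.47), and Glud1, glutamate dehydrogenase (0.52). Gatm stood at 1082, 1191 and 2853 CPM in icariin, 422, 532 and 959 CPM in CIAKI and 3831, 3929.9 and 4967 CPM in control libraries, with all icariin libraries below all control libraries (-1.45, adjusted p = 0.18). Got2 and Glud1 were named after their values were seen.

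Amino acid sensing upstream of mTORC1 gave 4 genes higher and 3 lower in CIAKI of 23 tested (median 0.06), and 5 higher and 3 lower with icariin than in CIAKI. These shares were near or below those of all features (18.9% higher and 19.7% lower in CIAKI; 18.3% higher and 18.2% lower with icariin). Those higher were Castor2 (0.76), a relative of the arginine sensor Castor1, the folliculin partner Fnip2 (0.57) and the GTPase genes Rraga (0.42) and Rheb (0.32). Those lower were the lysosomal scaffold gene Lamtor5 (-1.03), and 2 sestrin genes, Sesn1 (-0.92) and Sesn3 (-0.53). Sesn2 of the same family was not called (0.18, adjusted p = 0.52). Between icariin and control, Castor1 was higher (0.68, adjusted p = 0.014) and Sesn3 lower (-0.56, adjusted p = 0.041).

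**Figure D4:**
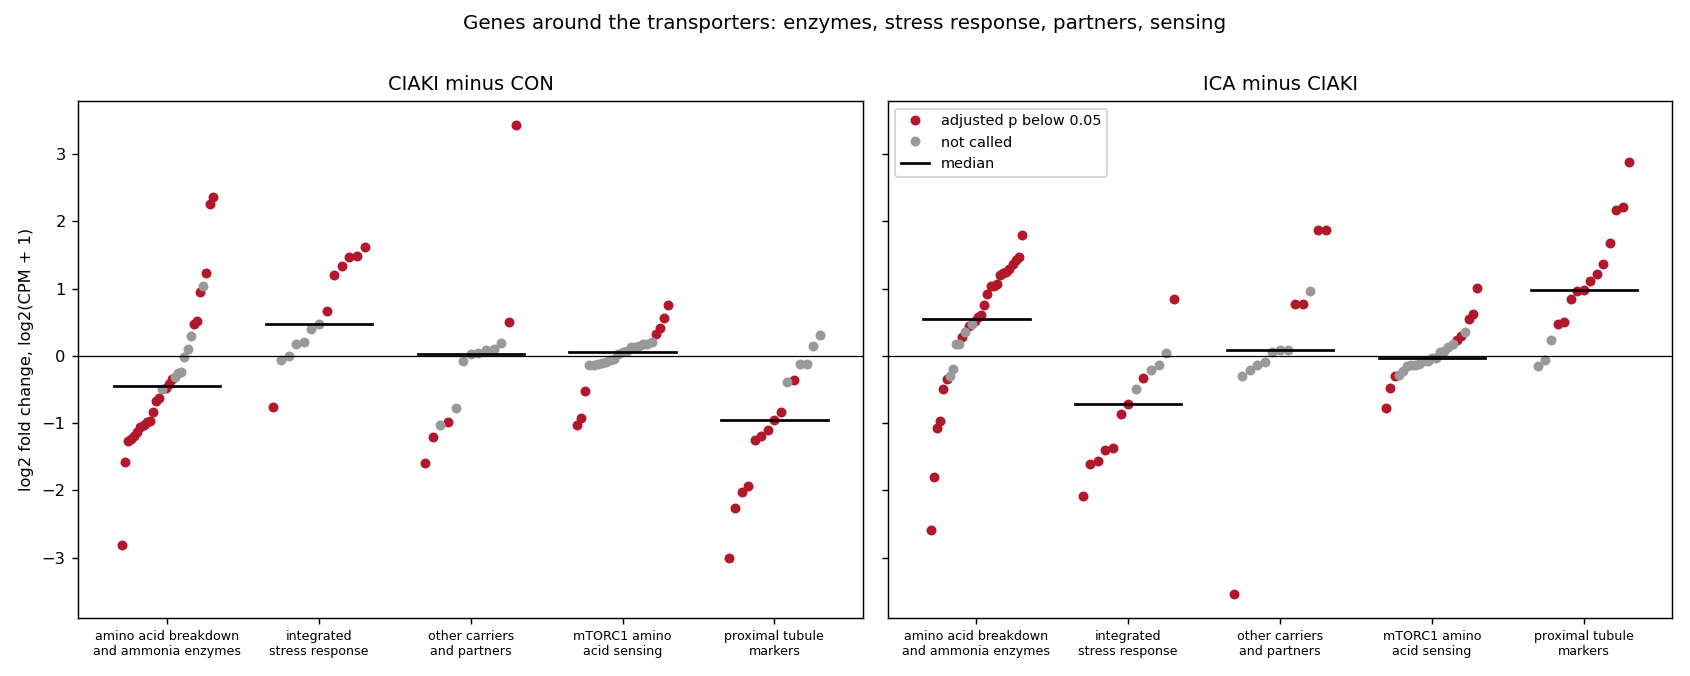
Log2 fold change (y axis, log2(CPM + 1) scale) of each tested gene in 5 lists (x axis) for CIAKI minus CON and ICA minus CIAKI, with red points called at an adjusted p below 0.05 and a line at the median of the list (n = 3 rats per group). Proximal tubule markers lie mostly below 0 on the left, with a median of -0.96, and mostly above 0 on the right, with a median of 0.98.

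Markers of other cell types and of injury were read from the same libraries. Of 5 markers of injured tubule, 3 rose in CIAKI (Havcr1, Lcn2 and Krt8), 1 fell (Vcam1) and 1 did not pass (Krt18). Havcr1 had 2.54, 2.63 and 1.35 CPM in icariin, 742, 419 and 229 CPM in CIAKI and 1.25, 1.08 and 0.529 CPM in control libraries, and Vcam1 had 21.2, 27.4 and 23.1 CPM in icariin, 13.1, 19.9 and 17.4 CPM in CIAKI and 39.4, 34.0 and 38.04 CPM in control libraries. Podocyte markers fell in CIAKI in 4 of 4 cases (median -0.70), those of the thick ascending limb in 2 of 5, those of the distal and connecting tubule in 2 of 3 and those of intercalated cells in 1 of 4. Of 5 principal cell markers 2 rose and 2 fell, and of 4 endothelial markers 1 rose and 1 fell. Over all features, 18.9% were called higher and 19.7% lower in CIAKI.

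Hnf4a, a regulator of proximal tubule genes, had 1178 ± 60.5 CPM in icariin, 959 ± 279.7 CPM in CIAKI and 1253 ± 60.8 CPM in control kidneys (adjusted p = 0.10 for CIAKI against control). Of the other regulators, Nedd4l, a ubiquitin ligase of transporters, rose in CIAKI by 0.41. Summed levels of 5 macrophage markers were 62.1 to 86.0 CPM in icariin, 36.5 to 48.9 CPM in CIAKI and 77.5 to 86.4 CPM in control kidneys. Of these, Csf1r and Adgre1 fell in CIAKI, Cd163 rose (0.91, adjusted p = 0.013), and Cd68 and C1qa did not pass. Summed levels of 5 lymphocyte markers were 12.8 to 22.8 CPM in icariin, 5.59 to 9.24 CPM in CIAKI and 21.9 to 25.1 CPM in control kidneys, with 3 of 3 tested lower in CIAKI, and 4 neutrophil markers summed to at most 2.75 CPM in any library. The 2 erythroid markers in the table summed to 69.1 to 427 CPM in icariin, 682 to 846 CPM in CIAKI and 70.3 to 414 CPM in control kidneys. The part of these cell types in the carriers' values was not tested.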

How the data were processed

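Kidney RNA of 9 rats was sequenced from Illumina TruSeq libraries, per the labels. The authors deposited the gene table in CPM; Bowtie 0.12.2 and the build mm8, a mouse build, are named in the submitters' processing notes, although the identifiers are rat Ensembl genes, and the sources used here do not give the counter, annotation or strand setting. CPM steps gave back whole reads (tolerance 0.1) for 100% of values, which equalled all 23850 read counts compared with the authors' deposited counts of selected mRNAs. That table's FPKM values, per the file headers, were used for levels per length. Of the gene symbols, 25 had been turned into dates, and these genes are not named.

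Limma 3.58.1 (R 4.3.3) with an intensity trend was fitted to log2(CPM + 1) of the 18733 features that passed the filter of 0.5 CPM in 3 libraries, with group as the factor over all 9 libraries; tests were two-sided, with Benjamini-Hochberg adjustment per comparison over all features, and 95% intervals are unadjusted. The count test edgeR 4.0.16 and DESeq2 1.42.0 were run on recovered reads as alternatives, and the fit was tested on simulated data. Limma intervals and p-values rest on the spread between 3 rats per group, pooled over all 3 groups and moderated by the intensity trend. They thus do not measure the spread of the compared groups alone. Per-library values are given for called members with an absolute log2 fold change of at least 1 and a mean of at least 1 CPM (up to 12 per direction), members called between icariin and control, and 12 carriers chosen by role; others were named by role. Genes outside the members were named by size, up to 4 per list and direction, with others chosen by role; some genes and a motif are not reported here. Alternatives changed the scaling, filter, pseudocount, features or libraries. Members and lists were chosen with earlier results of these data known. Same-numbered libraries did not deviate together, so no replicate block was used.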

Additional observations from a re-analysis of the deposited data

How the results depend on the processing

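Between 15 and 19 members were called in CIAKI against control when 1 library at a time was left out, 13 to 18 in icariin against CIAKI, and 1 in icariin against control. The features called in all then numbered 5722 to 7155, 5242 to 6467 and 28 to 118. With the replicate block, 17, 18 and 1 members were called in the same 3 comparisons, but in icariin against CIAKI Slc36a4 was gained and Slc38a7 lost; same-numbered libraries did not deviate together (correlations of -0.0309 to 0.0799). DESeq2 called 2 members in icariin against control, the second being Slc7a2. All other alternatives to the processing gave counts within 1.5 times of those reported for the members. Over all features, 105 were called in icariin against control, with 517 by DESeq2, 52 with no filter on low values and 69 with the replicate block. Of the alternatives for 17 named members in 3 comparisons, 1043 kept the side of the threshold, 25 lost a call and 3 gained one. Where either fit gave a call, 0 turned round. Differences without a call in both fits could change sign and still count among the 1043. Slc38a2 did so in icariin against control, with values of -0.049 to 0.213. The lost calls were those of Slc6a19 and Slc7a5 in CIAKI against control and of Slc6a18, Slc6a19, Slc7a9 and Slc7a12 in icariin against CIAKI, and the causes were not tested. Depth limited Slc6a4 most, which rested on 7 to 20 reads in CIAKI libraries.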
